A study of Mus musculus with 8 samples.

Results

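The endothelial identity genes described here are Pecam1, Cdh5, Kdr, Flt1, Tek, Tie1, Emcn, Ehd3, Plvap and Vwf. They were chosen by name, and all 10 were found among the 22180 genes that the array measured, each with 1 probe set. Each array measured the RNA of 1 snap-frozen whole kidney sample from a mouse of 2 months, and the p-values below cover only the spread between these mice. The groups were wild type (n = 2), Col4a3-/- (n = 3, called single mutant) and Col4a3-/-OPN-/- (n = 3, called double mutant). Both mutant groups lack Col4a3, a collagen chain of the membrane on which glomerular capillaries rest, and model Alport syndrome, a hereditary kidney disease. The double mutant also lacks osteopontin (OPN), a secreted matrix protein and cytokine. The labels do not name a strain.

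Endothelial cells line all blood vessels of the kidney. They are held together by the adhesion proteins of Cdh5 and Pecam1, and they depend on vascular endothelial growth factor, which podocytes and tubule cells release and which is bound by the receptors of Kdr and Flt1. The capillaries of the glomerulus are fenestrated and carry Ehd3, while the capillaries around the tubules close their fenestrae with diaphragms made of the Plvap protein. In bulk tissue, fewer cells of a type and less RNA per cell cannot be told apart.

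The values are log2 expression values, with array medians of 5.18 to 5.25. A gene was tested if its mean over the arrays exceeded 6.64 (percentile 75 over probe sets), a filter that 7145 genes and 9 of the 10 endothelial genes passed. Vwf, with a mean of 5.61, did not pass and is given from a fit without this filter. Col4a3 itself measured 8.42 to 8.77 in wild type, 6.60 to 7.67 in single mutants and 6.13 to 7.60 in double mutants. Its ranges in the mutants thus lay below wild type. In the limma fit of the 3 groups its difference from wild type was -1.29 (adjusted p = 0.162) in the single mutant. It was -1.75 (adjusted p = 0.0998 in limma) in the double mutant. Neither passed, although both mutants lack this gene. The osteopontin gene was not analysed here. Xist and 3 Y-linked genes read both wild type mice, single mutant 2 and double mutant 3 as male and the other 4 mutants as female. Single mutant 2 stood apart from the other single mutants, with correlations over tested genes of 0.865 and 0.839, while those 2 correlated at 0.959 with each other. Its correlation with double mutant 3, the other male mutant, was 0.948. With the male wild type mice it was only 0.800 and 0.763, while those of the female single mutants with them lay between 0.878 and 0.926. Sex and genotype overlap, since no wild type female was measured, and each comparison is given without and with a term for sex. That term is estimated from the mutants alone and taken as equal in all groups. With 1 male per mutant group, it also takes up any other trait of these 2 mice.

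**Figure D1:**
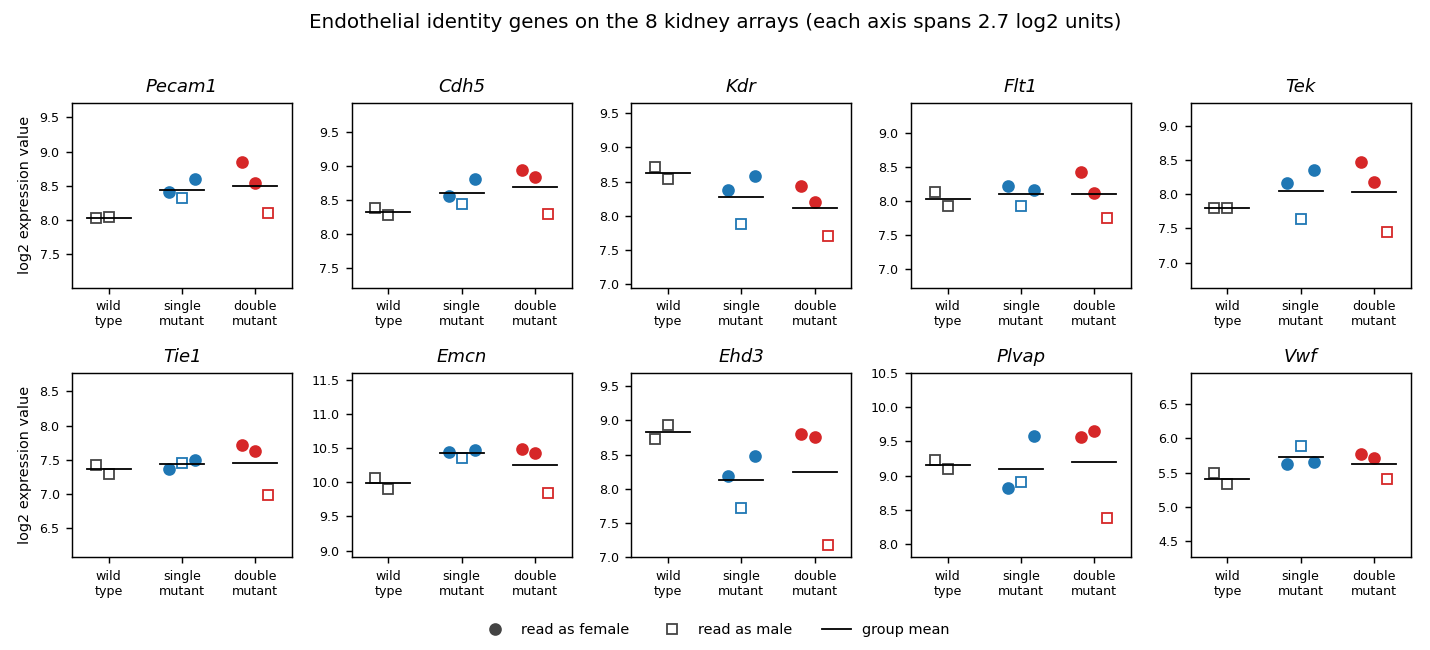
Log2 expression value of each endothelial gene (y axis, with the same span in every panel) in the 3 groups (x axis), with 1 point per kidney, filled circles for mice read as female, open squares for mice read as male and a line at the group mean. Double mutant 3, the male, lies below both female double mutants in each of the 9 tested genes and in Vwf.

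Among the junction and adhesion genes, no difference from wild type passed the test, and Pecam1 had the clearer separation. Pecam1 (chromosome 11, 106654213 to 106715281, GRCm38.p6), which encodes the adhesion molecule CD31 of endothelial contacts, measured 8.02 and 8.04 in wild type. It measured 8.41, 8.32 and 8.60 in single mutants 1 to 3 and 8.84, 8.54 and 8.10 in double mutants 1 to 3. All 6 mutants thus lay above both wild type mice, and the male double mutant came closest to them. Its difference from wild type was 0.41 for single mutants (SE 0.21, adjusted p = 0.273 in limma) and 0.46 for double mutants (SE 0.21, adjusted p = 0.255). These values became 0.15 and 0.20 when sex was a term.

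Cdh5 (chromosome 8, 104101613 to 104144504), the VE-cadherin of endothelial junctions, measured 8.39 and 8.27 in wild type. It measured 8.55, 8.44 and 8.81 in single mutants and 8.94, 8.84 and 8.30 in double mutants. Single mutants lay above wild type, whereas double mutant 3 fell between the wild type values. The differences from wild type were 0.27 (SE 0.21, adjusted p = 0.447 in limma) and 0.36 (SE 0.21, adjusted p = 0.350). Without the male mutants, which leaves female mutants against male wild type mice, Pecam1 and Cdh5 were higher in the double mutant by 0.66 (adjusted p = 0.0324) and 0.56 (adjusted p = 0.0438), and in this fit genotype and sex cannot be told apart. Of all tested genes 7.29 percent were higher in that fit. Both genes were also higher with array weights, by 0.59 and 0.50, when 8.40 percent of all genes were. Calls over the whole array rose in both fits, and these 2 calls are not read as particular to the endothelial genes.

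Among the receptors of vascular endothelial growth factor, Kdr passed the test in the fit with the term for sex and Flt1 did not. Kdr (chromosome 5, 75932827 to 75979072), the main signalling receptor VEGFR2, measured 8.71 and 8.53 in wild type. It measured 8.37, 7.87 and 8.58 in single mutants and 8.43, 8.20 and 7.70 in double mutants. All double mutants lay below wild type, and the lowest mouse of either mutant group was the male. Its difference without a term for sex was -0.35 (SE 0.27, adjusted p = 0.435 in limma) in the single and -0.52 (SE 0.27, adjusted p = 0.295) in the double mutant. Once sex was a term, Kdr fell by 0.75 on the log2 scale in the single mutant (SE 0.16, adjusted p = 0.0161), a 1.69-fold difference, and by 0.92 in the double mutant (SE 0.16, adjusted p = 0.0114), a 1.89-fold difference.

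Flt1 (chromosome 5, 147561604 to 147726438), the VEGFR1 receptor, which also exists as a soluble trap for the ligand, measured 8.13 and 7.92 in wild type. It measured 8.22, 7.92 and 8.16 in single mutants and 8.43, 8.12 and 7.75 in double mutants. The groups overlapped in both comparisons, and the differences from wild type were 0.07 (SE 0.21) and 0.07 (SE 0.21). Both were -0.19 when sex was a term (adjusted p = 0.429 and 0.439 in limma). Whether Kdr and Flt1 differ from each other in their response was not tested.

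Tek and Tie1 encode the receptor pair of the angiopoietins, which govern the stability of vessels. Tek (chromosome 4, 94739086 to 94874976), the receptor TIE2, measured 7.80 and 7.81 in wild type. It measured 8.17, 7.64 and 8.36 in single mutants and 8.48, 8.19 and 7.44 in double mutants. The 4 female mutants lay above both wild type mice and both male mutants lay below them. Its differences from wild type were 0.25 (SE 0.32, adjusted p = 0.639 in limma) and 0.23 (SE 0.32, adjusted p = 0.696), and with the term for sex -0.25 and -0.27, without passing.

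Tie1 (chromosome 4, 118471191 to 118489849), the partner receptor that binds no angiopoietin well on its own, measured 7.42 and 7.30 in wild type. It measured 7.36, 7.46 and 7.50 in single mutants and 7.72, 7.63 and 6.99 in double mutants. Here the male single mutant was not the lowest of its group, while the male double mutant was the lowest of all 8 mice. The differences from wild type were 0.08 (SE 0.22) and 0.09 (SE 0.22), and neither passed.

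Emcn and Vwf are surface and secreted products of endothelium. Emcn (chromosome 3, 137341062 to 137431069), the sialomucin endomucin of capillary and venous endothelium, measured 10.07 and 9.91 in wild type. It measured 10.45, 10.36 and 10.47 in single mutants and 10.49, 10.42 and 9.85 in double mutants. All single mutants lay above wild type, the male included, and double mutant 3 lay below. The differences from wild type were 0.44 (SE 0.20, adjusted p = 0.230 in limma) and 0.27 (SE 0.20, adjusted p = 0.455), and 0.21 and 0.03 with the term for sex.

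Vwf (chromosome 6, 125552948 to 125686679), the clotting factor stored in endothelial granules and platelets, measured 5.49 and 5.33 in wild type. It measured 5.63, 5.88 and 5.66 in single mutants and 5.77, 5.71 and 5.40 in double mutants. These values lie near the array medians, so the gene was weakly measured. Without the filter its differences from wild type were 0.31 (SE 0.14, adjusted p = 0.345 in limma) and 0.22 (SE 0.14, adjusted p = 0.543). Of 9 platelet and megakaryocyte genes listed, 7 were measured and none passed the filter, and their values lay between 4.60 and 5.51.

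Ehd3 and Plvap separate the glomerular from the peritubular capillaries. Ehd3 (chromosome 17, 73804841 to 73832093), an ATPase of membrane recycling that in the kidney marks glomerular endothelium, measured 8.73 and 8.93 in wild type. It measured 8.18, 7.71 and 8.47 in single mutants and 8.80, 8.76 and 7.17 in double mutants. All single mutants lay below wild type. The female double mutants lay at the wild type level, and the male double mutant lay more than a log2 unit below every wild type mouse.

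Its difference from wild type, without a term for sex, was -0.71 (SE 0.48, adjusted p = 0.377 in limma) in the single and -0.58 (SE 0.48, adjusted p = 0.492) in the double mutant. With that term it fell by 1.45 on the log2 scale in the single mutant (SE 0.28, adjusted p = 0.0125 in limma), a 2.73-fold difference. In the double mutant it fell by 1.33 (SE 0.28, adjusted p = 0.0170 in limma), a 2.51-fold difference. These sizes rest on 1 sex term shared by all groups. The gap between females and males, however, differed between double and single mutants by 0.996 (SE 0.26, unadjusted p = 0.00656, adjusted p = 0.169 in limma). No single mutant lay 1.45 below the wild type mean of 8.83, since the lowest measured 7.71. Among males alone, with 1 mouse per mutant and no test, the difference of Ehd3 was -1.12 in the single and -1.66 in the double mutant. Of all tested genes, 7.80 percent in the single and 0.826 percent in the double mutant had a difference as low or lower between those males.

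Plvap (chromosome 8, 71497753 to 71511806), which forms the diaphragms of peritubular capillaries, measured 9.22 and 9.10 in wild type. It measured 8.82, 8.91 and 9.58 in single mutants and 9.56, 9.66 and 8.38 in double mutants. The values of each mutant group spread to both sides of wild type. The differences from wild type were -0.06 (SE 0.39) and 0.04 (SE 0.39), and with the term for sex -0.56 (SE 0.33, adjusted p = 0.222 in limma) and -0.47 (SE 0.33, adjusted p = 0.313). Among males alone, again untested, they were -0.25 and -0.78.

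Within each array, a measure that shows unequal change and not which gene changed, Plvap minus Ehd3 was 0.49 and 0.17 in wild type. It was 0.63, 1.20 and 1.10 in single mutants and 0.75, 0.89 and 1.21 in double mutants. Every mutant lay above both wild type mice, in females and males alike. The difference of means was 0.65 for single mutants against wild type (two-sided exact permutation test, p = 0.20) and 0.62 for double mutants (p = 0.10 in the exact permutation test). The smallest p that these group sizes allow is 0.10, so neither could be called. The mutants differed from each other by -0.03 (p = 1 in the exact permutation test). In males alone the differences from wild type were 0.87 and 0.88.

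**Figure D2:**
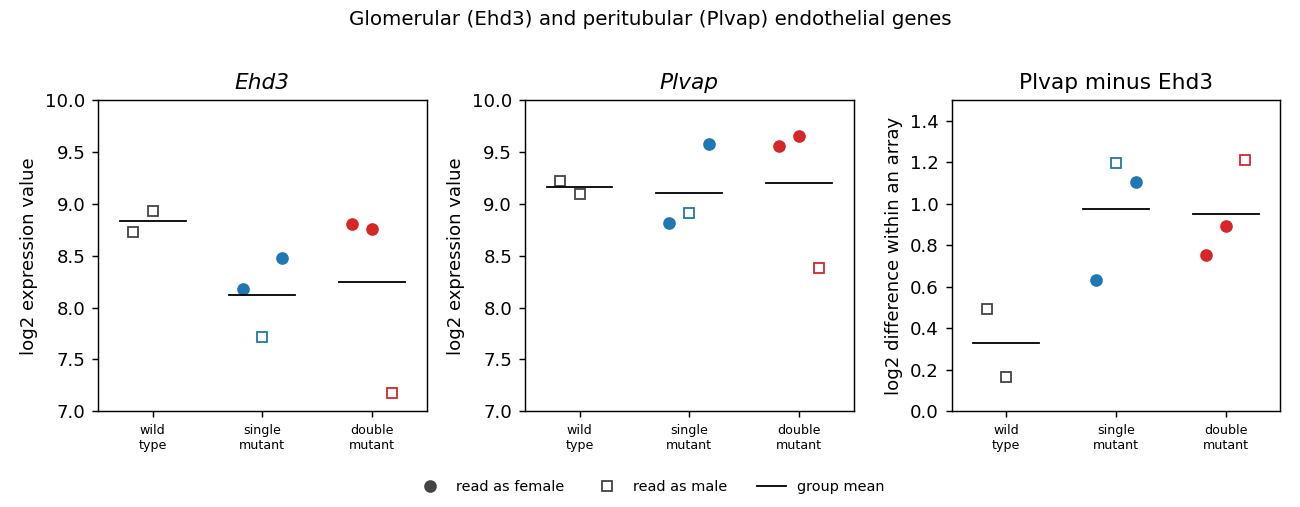
Log2 expression values of Ehd3 (left) and Plvap (middle) and the log2 difference Plvap minus Ehd3 within each array (right) for the 3 groups, with 1 point per kidney, filled circles for mice read as female, open squares for mice read as male and a line at the group mean. The difference is 0.49 and 0.17 in wild type and lies between 0.63 and 1.21 in all 6 mutants.

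Counted over the genes, no endothelial gene passed in any comparison without the term for sex. In the single mutant against wild type 0 of 9 tested members were higher and 0 lower by limma, where 0.014 percent of all tested genes were called higher and 0.014 percent lower. In the double mutant against wild type the counts were 0 and 0, beside 0.056 percent of all genes called higher and 0.028 percent lower. Not one of these members had an unadjusted p under 0.05 in limma. Of the 7145 tested genes 667 with a higher and 989 with a lower value did in the single mutant, and 631 and 913 in the double mutant. Members had medians of 0.08 and 0.09, all tested genes -0.07 and -0.08.

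Without any model, 3 of 9 tested members had all single mutants above wild type, namely Pecam1, Cdh5 and Emcn, where 19.3 percent of all tested genes did. Ehd3 alone had all single mutants below, where 29.1 percent of all genes did. Pecam1 alone had all double mutants above wild type, beside 17.4 percent of all genes, and Kdr alone had all of them below, beside 28.8 percent.

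In the fit with the term for sex Kdr and Ehd3 were lower in both mutants, 2 of 9 members in each comparison. Of all tested genes 19.9 percent were lower in the single and 17.8 percent in the double mutant, so the share of members is close to that of all genes. No member was higher, where 7.31 and 6.40 percent of all genes were. The medians of the members were -0.19 in both comparisons, beside -0.15 and -0.15 for all genes. Both calls of the single mutant were lost without wild type 2 (adjusted p = 0.0805 for Ehd3 and 0.0677 for Kdr) or single mutant 2 (adjusted p = 0.0583 and 0.118), and that of Kdr without wild type 1 (adjusted p = 0.0611). Both calls of the double mutant were lost without wild type 2, and Ehd3 lost its call without double mutant 3, when it differed by -0.66 (adjusted p = 0.0946), and without the filter on low values (adjusted p = 0.0548).

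**Figure D3:**
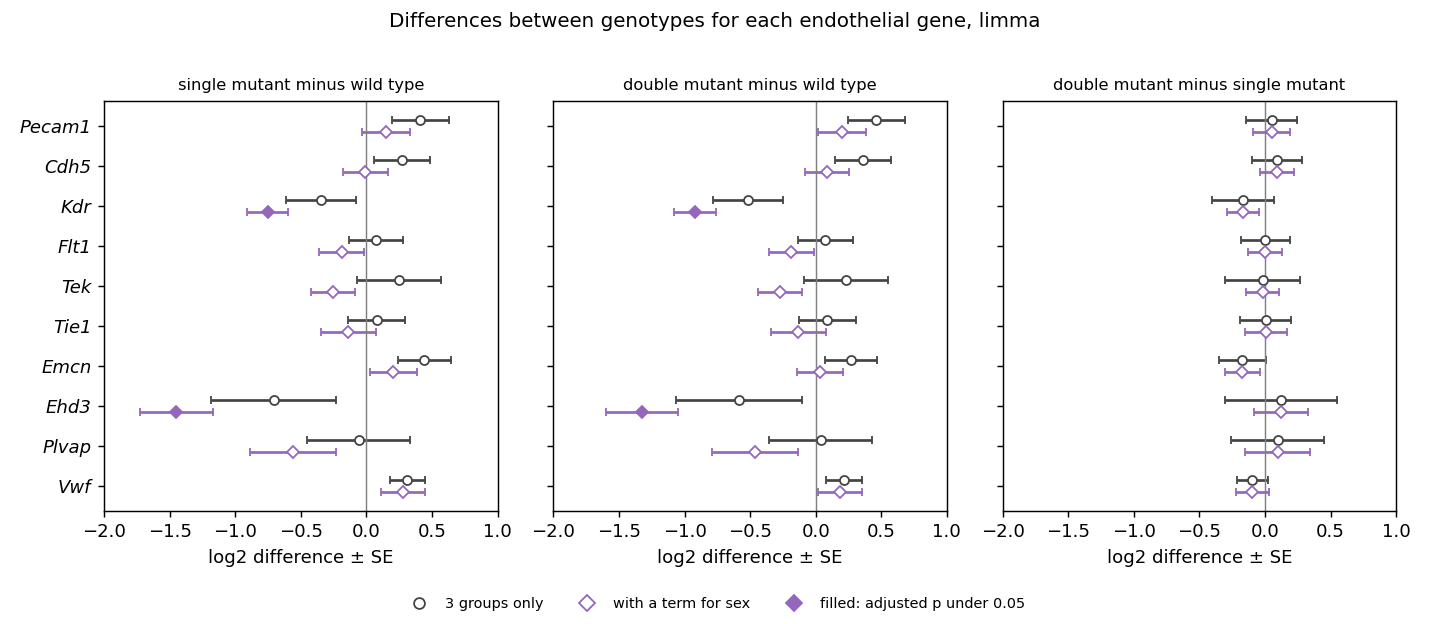
Log2 difference with its SE (x axis) for each endothelial gene (y axis) in the 3 comparisons, from limma without (circles) and with (diamonds) a term for sex, where filled symbols mark an adjusted p under 0.05 and Vwf is from the fit without a filter. Only Kdr and Ehd3 with the term for sex are filled, at -0.75 and -1.45 in the single and -0.92 and -1.33 in the double mutant.

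Double and single mutants were set against each other to ask whether endothelial genes differ in an Alport kidney without osteopontin. None of the 9 tested members passed in either direction, with or without the term for sex, and none had an unadjusted p under 0.05 in limma. Of all tested genes 0 percent were called higher and 0 percent lower, and without the term for sex 63 and 41 genes had an unadjusted p under 0.05. The differences ran from -0.17 for Emcn and -0.17 for Kdr to 0.12 for Ehd3, with a median of 0.01. The 95 percent interval for Ehd3 ran from -0.87 to 1.11 and that for Plvap from -0.72 to 0.91. When sex was a term, these intervals were -0.36 to 0.61 and -0.48 to 0.67, so that differences within them are not excluded by these arrays. The intervals of Flt1 and Tie1 with the term for sex were -0.30 to 0.30 and -0.36 to 0.38. No member separated the mutant groups completely, where 2.02 percent of all genes lay above and 3 percent below.

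Several members had opposite signs in females and males in this comparison, which was read from the values after they were seen. In females, 2 mice per mutant, the double minus single mutant difference was 0.45 for Ehd3 and 0.41 for Plvap. In males, 1 mouse per mutant, it was -0.54 for Ehd3 and -0.53 for Plvap. Tie1 differed by 0.24 in females and by -0.47 in males. In a fit with genotype and sex combined the difference between females and males was 0.996 for Ehd3 (SE 0.26, adjusted p = 0.169 in limma) and 0.94 for Plvap (SE 0.41, adjusted p = 0.407). It was 0.71 for Tie1 (SE 0.22, adjusted p = 0.245). Of 9 tested members 0 passed in limma, as did 0 percent of all genes in either direction, and Ehd3 and Tie1 had an unadjusted p under 0.05, beside 544 genes with a positive and 369 with a negative value.

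Among the mutants all 9 tested members were higher in the females, as were 62.0 percent of all tested genes. The term for sex was 1.11 for Ehd3 (SE 0.22, adjusted p = 0.0235 in limma), 0.76 for Tek (SE 0.13, adjusted p = 0.0178) and 0.61 for Kdr (SE 0.13, adjusted p = 0.0279). These 3 of 9 members were called higher in females, beside 8.22 percent of all genes, and none was called lower, beside 1.97 percent. An unadjusted p under 0.05 in limma was found for 8 of 9 members, all higher in females. Of the 7145 tested genes 1595 had such a p with a higher and 539 with a lower value in females. Members had a median of 0.42, beside 0.09 for all genes. The values of Plvap and Cdh5, 0.75 and 0.42, did not pass. The following counts were chosen after the values were seen. The 2 male mutants lay below all 4 female mutants in 7 of 9 members, all except Tie1 and Plvap, and in 29.0 percent of all genes. Double mutant 3 was the lowest of the 8 mice in 7 members, and in 20.6 percent of all genes. It lay below both female double mutants in 9 of 9 members, where 55.5 percent of all genes did so, and single mutant 2 below both female single mutants in 7, where 46.6 percent did. Both male mutants lay below both wild type mice in 5 members, namely Kdr, Flt1, Tek, Ehd3 and Plvap, beside 47.5 percent of all genes, and above them in Pecam1, beside 24.9 percent.

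The calls for sex rest on 2 male mutants, so sex cannot be told apart from other traits of these 2 mice. Single mutant 2 had the lowest mean of 10 proximal tubule genes among the 8 mice, 9.57. Its mean of 10 macrophage genes, 8.67, was the highest. In double mutant 3 these means were 10.59 and 8.09, both the lowest of its group. Ehd3, Tek and Kdr all lost their calls without single mutant 3 (adjusted p = 0.0715, 0.0594 and 0.0846 in limma) or double mutant 3 (adjusted p = 0.0856, 0.0805 and 0.0928), and Ehd3 was then at 0.61 without double mutant 3. Without single mutant 2 only Ehd3 kept its call, and without double mutant 1 only Tek did. Without double mutant 2 Ehd3 lost its call (adjusted p = 0.0510).

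The members varied together over the 8 arrays to different degrees. Pearson's r over the arrays, which share group and sex and is a description, had a median of 0.705 over the 45 pairs of members. It was highest between Pecam1 and Cdh5 at 0.955, and reached 0.905 between Flt1 and Tek and 0.853 between Kdr and Ehd3. It was 0.103 between Pecam1 and Kdr, 0.262 between Pecam1 and Ehd3 and -0.17 between Kdr and Vwf. Plvap correlated at 0.809 with Ehd3 and at 0.884 with Tie1. Pecam1, Cdh5 and Emcn thus varied closely together, and Kdr and Ehd3 varied more with each other than with those genes.

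Among all other tested genes, those with the course most like the mean of the 9 tested members were Pdpk1 (r = 0.987 over 8 arrays), Laptm4a (0.975), Mier3 (0.972), Ephx1 (0.968) and Erg (0.963). Erg is an ETS transcription factor of endothelium. Nearest to Ehd3 were Elmod3 at 0.990, Ecd at 0.989, Ercc3 at 0.984, Slc48a1 at 0.984 and Dym at 0.984. Nearest to Plvap were Fzd7 at 0.988, Cggbp1 at 0.972, Dpf2 at 0.964, Srprb at 0.955 and Tmem127 at 0.946.

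ETS factors bind DNA around the letters GGAA, and the short words AGGAAG and CGGAAG were therefore looked up on both strands of the promoters of the members, from 250 bases before to 50 after the start site, a window of 300 bases, (RefSeq, GRCm38.p6). Of the 10 members 6 had an entry, namely Emcn, Tek, Tie1, Kdr, Flt1 and Ehd3. Either word was found in 4 of these 6, beside 46.5 percent of all 32851 promoters. AGGAAG was found in Ehd3, Emcn, Flt1 and Tie1, beside 35.4 percent of all promoters, and CGGAAG in Tie1, beside 16.9 percent. The windows of 30 bases below, read 5′ to 3′ on the strand of the gene, show 1 match per gene with the word or its reverse complement in capitals. The match in Ehd3 begins 5 bases after the start site, in Emcn at position -93, in Flt1 at -53 and in Tie1 at -232, and it lies on the opposite strand in Ehd3. Positions count from the start site of the promoter entry, which in Flt1 and Emcn lies inside the gene coordinates given above. A match is a description of the letters and was not tied to the expression values.
Ehd3, chr17:73804834-73804863, plus strand: agttctcggggaCTTCCTgcacgtctggca
Emcn, chr3:137340973-137341002, plus strand: agtggctgccaaAGGAAGagagaggaaaaa
Flt1, chr5:147726047-147726076, minus strand: aggtgccggggtAGGAAGtgggctggggaa
Tie1, chr4:118490064-118490093, minus strand: cttctcaataggCGGAAGccactggcttcc

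Other endothelial genes were taken from lists. Their medians without the term for sex stand beside -0.07 in the single and -0.08 in the double mutant over all tested genes. Their calls with that term stand beside 7.31 and 6.40 percent of all genes called higher and 19.9 and 17.8 percent called lower. Of 19 other surface and junction genes 14 were tested, and 0 passed without the term for sex in either mutant. Their medians were 0.42 in the single and 0.38 in the double mutant, above those of the 9 members. Once sex was a term, 1 of the 14 passed in each mutant, a share close to that of all genes called higher. Cd34, a sialomucin of vascular and progenitor cells, was higher by 0.65 (SE 0.20, adjusted p = 0.0499 in limma) in the single mutant. Mcam, an adhesion molecule of endothelium and pericytes, was higher by 0.70 (SE 0.20, adjusted p = 0.0439) in the double mutant.

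Of 16 endothelial transcription factors 7 were tested and none passed. The ETS factors Fli1 and Elk3 were at 0.70 and 0.59 in the single and at 0.95 and 0.87 in the double mutant, without passing, and in the double mutant with the term for sex at 0.94 (adjusted p = 0.0503 in limma) and 0.83 (adjusted p = 0.0529). Erg was at -0.14 with the term for sex in the single mutant. The median of the 7 was 0.48 in single and 0.38 in double mutants.

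Of 11 genes of growth factor ligands and co-receptors 6 were tested. Vegfa, the ligand of Kdr, was at 0.12 (SE 0.20, adjusted p = 0.675 in limma) with the term for sex in the single mutant. Vegfb, a ligand of Flt1, fell by 0.92 on the log2 scale in the single (SE 0.23, adjusted p = 0.0274) and by 0.83 in the double mutant (SE 0.23, adjusted p = 0.0389) in that fit. Nrp2, a co-receptor, was higher by 0.81 (SE 0.19, adjusted p = 0.0217) in the single mutant. Without the term for sex none of the 6 passed.

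The lists of glomerular and peritubular genes, which hold Ehd3 and Plvap, each had genes of both signs. Of 9 glomerular endothelium genes 5 were tested. With the term for sex Ehd3 was lower and Plat, the plasminogen activator tPA, was higher in both mutants, by 0.80 (SE 0.18, adjusted p = 0.0189 in limma) and 1.002 (SE 0.18, adjusted p = 0.0124). The other tested genes of the list did not pass. Mapt was at -0.53 (adjusted p = 0.102) in the single and -0.59 (adjusted p = 0.0794) in the double mutant. Lpl was at 0.04 and -0.22, and Tbx3 at 0.0034 and 0.05. Gata5 and Sost did not pass the filter. Of 8 peritubular and venous genes 5 were tested. In the fit with that term Cd300lg, a surface protein of capillaries, fell by 0.98 on the log2 scale in the single mutant (SE 0.19, adjusted p = 0.0132 in limma). In the double mutant it fell by 1.23 (SE 0.19, adjusted p = 0.0110 in limma). Igfbp3 was at -0.93 and -0.93, Igfbp5 at -0.06 and -0.19 and Nr2f2 at 0.55 and 0.49, and like Plvap they did not pass. The medians of the 5 were -0.56 and -0.47, beside -0.15 and -0.15 for all genes. Without the term for sex they were -0.06 and 0.04. Other members of the EHD family were at -0.44 for Ehd1 and 0.05 for Ehd2 in the single mutant with that term, and neither passed.

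Of 9 genes of endothelial activation 4 were tested, of which 2 were higher in the single and 3 in the double mutant when sex was a term, beside the 7.31 and 6.40 percent of all genes. Of so few genes no share is read. In that fit Vcam1, which captures leukocytes on inflamed vessels, was higher by 2.84 (SE 0.38, adjusted p = 0.00744 in limma) in the single and by 3.38 (adjusted p = 0.00467) in the double mutant. Icam1, another receptor of leukocytes, was higher by 1.13 (adjusted p = 0.0161) and 1.81 (adjusted p = 0.00774) in limma. Selplg, a selectin ligand of leukocytes, was higher in the double mutant by 1.77 (adjusted p = 0.0242). Without the term for sex 0 of the 4 passed, and their medians were 0.92 and 1.50. Vcam1 and Icam1 are also made by tubule and stromal cells, and Selplg is a gene of leukocytes. These calls are therefore not read as calls of endothelium.

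Of 13 genes of clotting and vessel tone 5 were tested. In the fit with that term Thbd, the thrombomodulin that restrains clotting, was higher by 0.46 (SE 0.14, adjusted p = 0.0498 in limma) and 0.64 (SE 0.14, adjusted p = 0.0206). Ace, the angiotensin-converting enzyme of vessels and tubules, fell by 0.80 on the log2 scale in the double mutant (SE 0.23, adjusted p = 0.0436). Among 9 Notch genes 5 were tested, and Notch1 was higher by 0.46 (SE 0.14, adjusted p = 0.0461) in the single mutant. Arterial genes had 4 tested of 9 and none passed, and of 5 lymphatic genes only Flt4 was tested, which did not pass.

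**Figure D4:**
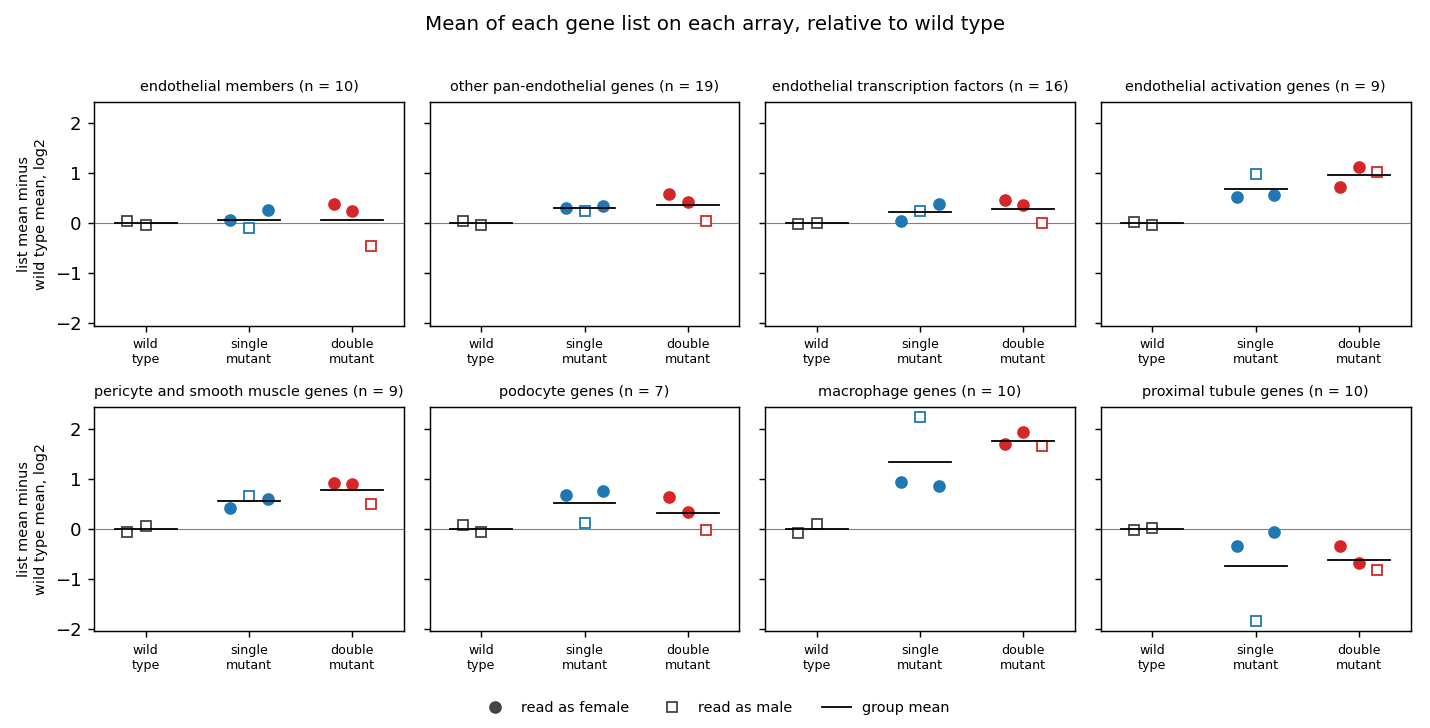
Mean of each gene list on each array minus its wild type mean (y axis, log2) for the 3 groups, with 1 point per kidney, filled circles for mice read as female, open squares for mice read as male, a black line at the group mean and a grey line at 0. The endothelial genes spread to both sides of 0, from list means of 7.71 to 8.55 in double mutants around 8.11 and 8.20 in wild type, while macrophage genes lie above 0 in all mutants and proximal tubule genes lie lowest in the male single mutant.

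Markers of other cell types moved over the same mice, and their part in the endothelial values was not tested. The mean of the 10 macrophage genes, all measured, was 6.36 to 6.53 in wild type, 7.31 to 8.67 in single and 8.09 to 8.38 in double mutants. That of the 10 proximal tubule genes was 11.39 to 11.44, 9.57 to 11.34 and 10.59 to 11.07. With the term for sex, 7 of 9 tested macrophage genes were higher in both mutants, beside 7.31 and 6.40 percent of all tested genes. Of 10 proximal tubule genes 7 were lower in the single and 6 in the double mutant, beside 19.9 and 17.8 percent of all tested genes. The mean of 9 pericyte and smooth muscle genes was 6.90 to 7.03, 7.38 to 7.61 and 7.46 to 7.89. Acta2, the smooth muscle actin, was the listed gene that passed without the term for sex, at 1.34 (SE 0.15, adjusted p = 0.0346 in limma) in the double mutant. With that term 2 of 7 tested genes of this list were higher in each mutant, Acta2 and Tagln, beside the same shares of all genes called higher. Tagln was then at 1.50 (adjusted p = 0.00584 in limma) in the single and 1.84 (adjusted p = 0.00407) in the double mutant. For 7 measured podocyte genes of 10 the mean was 6.47 to 6.61, 6.65 to 7.29 and 6.51 to 7.18. Of 9 red cell genes only Slc4a1 was measured, at 6.79 to 7.11, 5.72 to 7.73 and 5.84 to 7.32. Alone it is not read as a measure of blood in the tissue. The mean of the 10 endothelial genes was 8.11 to 8.20 in wild type, 8.05 to 8.42 in single and 7.71 to 8.55 in double mutants. It overlapped between all groups, with the lowest value of each mutant group in its male.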

How the data were processed

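The authors deposited log2 values, 1 for each probe set on each array. The sources used here do not say how they were normalized. The unit was read from the range of the deposited log2 values, 4.20 to 13.43. RNA was labelled with a FlashTag Biotin HSR kit, per the labels' protocols. Sex was read from the arrays, since the labels do not give it. Of 33793 probe sets 23521 named 1 gene, and of several probe sets of a gene the one with the highest mean was kept. Groups were compared in 1 linear model with limma 3.58.1 (R 4.3.3), two-sided, with Benjamini-Hochberg adjustment over 7145 tested genes and calls under 0.05, with 5 residual degrees of freedom, or 4 with the term for sex and 3 for the fit of genotype and sex combined. Plots were drawn with matplotlib 3.10.9. The fit was tested on simulated data. Plvap minus Ehd3 was tested by exact permutation over samples. Other settings listed at the outset were the filter, normalization, variance model, samples in the fit, probe set rule, replicate block, term for sex and leaving out arrays, and those added after seeing the data were the same choices with the term for sex and leaving out both male mutants. The fit of genotype and sex combined was not repeated under them. The members, the lists (183 entries, 168 measured) and the settings were chosen with earlier results of these data known. By rule all members are named, up to 4 genes of each list and comparison (the largest among those called, else the smallest p), and the 5 genes most like the member mean, Ehd3 and Plvap. A list gene named outside this rule was chosen after its values were seen. The number of arrays limits the precision.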

Additional observations from a re-analysis of the deposited data

How the results depend on the processing

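Without the term for sex the counts of endothelial genes called stayed at 0 higher and 0 lower in all 3 comparisons under other filters, normalizations, variance trends, fits of 2 groups, the mean of probe sets, the replicate block and leaving out each array in turn (0 to 0). The exceptions were 2 members lower in each mutant against wild type with the term for sex, and 2 members higher in the double mutant with array weights (Pecam1 at 0.59 and Cdh5 at 0.50) and 2 without both male mutants, a setting added after the data were seen, when 8.40 and 7.29 percent of all genes were higher. With the term for sex, leaving out an array in turn gave 0 to 2 members lower in either mutant, and no filter gave 1 lower in the double mutant. Members higher in females numbered 0 to 4 when an array was left out, and 1 each without a filter, with array weights and with the replicate block, against 3. Whether the replicate numbers pair the samples was not settled. Same-numbered samples deviated from their group means with correlations of -0.577 to 0.256. Groups of 2 or 3 arrays, with male mutants numbered 2 and 3, cannot decide it. The replicate block changed no other member's call. Plvap minus Ehd3 in the double mutant against wild type was 0.62, but 0.88 in males only and 0.86 with the term for sex, and ran from 0.46 to 0.79 when an array was left out. Uncalled values that changed sign were not counted as reversed, and no called value changed sign. Genes called over the whole array moved more, without the term for sex to 0 to 292 higher and 0 to 298 lower in the double mutant, the most of any left-out array without single mutant 2. Array weights gave 289 higher and 518 lower in the single mutant and 600 and 672 in the double mutant, and leaving out both male mutants 143 and 164, and 521 and 459. A fit of only the double mutant and wild type gave 193 and 151. Higher and lower calls with the term for sex, 522 and 1424 in the single mutant, ran from 0 to 718 and from 0 to 1429 when an array was left out, and in the double mutant, 457 and 1271, from 37 to 574 and from 33 to 1195.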
